A study of Mus musculus with 8 samples.

Results

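The genes described here are 10 genes of water, urea and sodium transport in the renal collecting duct: Aqp2, Aqp3, Aqp4, Avpr2, Slc14a2, Scnn1a, Scnn1b, Scnn1g, Fxyd4 and Hsd11b2. They were chosen by symbol, and all 10 were found among the 34450 genes of a table of kidney RNA-seq values. The kidneys came from C57BL/6J mice aged 8 weeks, at day 3 after ischaemia-reperfusion injury (IRI), in which renal blood flow is interrupted and restored and the tubules are damaged. Mice of the hypoxia group were kept in low oxygen before IRI (hypoxic preconditioning), and mice of the normoxia group in normal oxygen before the same injury, with 4 libraries in each group. All groups carried the injury, so each difference below is between injured kidneys. The question put by the study is which transcripts differ in an injured kidney that was preconditioned. Nothing in the labels ties a library to its own mouse, so the p-values reflect the spread among these 8 libraries alone, and that spread may be technical.

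As background, the collecting duct sets the final water and sodium content of urine, mainly through its principal cells. Vasopressin binds its receptor on the basolateral membrane (Avpr2), raises cyclic AMP and moves the water channel encoded by Aqp2 to the apical membrane. Water leaves the cell through the basolateral channels encoded by Aqp3 and Aqp4. Sodium enters through the epithelial sodium channel (ENaC), built from alpha, beta and gamma subunits (Scnn1a, Scnn1b, Scnn1g), and leaves by the sodium pump, which the small protein encoded by Fxyd4 modulates. The enzyme encoded by Hsd11b2 inactivates corticosterone and so reserves the mineralocorticoid receptor for aldosterone. Slc14a2 encodes the UT-A urea transporters of the inner medullary collecting duct and the thin descending limb. Suppression of aquaporins and sodium transporters is a known feature of ischaemic kidney injury.

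The authors' values were FPKM, fragments scaled to transcript length and to the mapped fragments of the library, so levels of different genes can be compared per length. Depth, estimated from the spacing of the lowest values, was about 8500000 to 14900000 fragments per library. The share of assigned fragments from ribosomal transcripts ranged from 13.5% to 72.5%. Because FPKM is scaled to all mapped fragments, a high ribosomal share lowers the FPKM of every other gene. The values were therefore also scaled by TMM (trimmed mean of M values), which equalises libraries on the bulk of their genes. Normoxia library 5 was the least like the others (mean Spearman correlation 0.633, against 0.767 to 0.832 for the other libraries). Hypoxia libraries 1 and 2 (0.924) and hypoxia libraries 3 and 4 (0.921) resembled each other more than libraries of different pairs (at most 0.853). The labels do not say whether the libraries of a pair share an animal. In whole kidney RNA, fewer cells of a type and less RNA per cell cannot be told apart.

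Promoter sequence is shown for 4 genes whose values are compared as pairs below: Aqp2 and Aqp3, whose ratio was steady in the hypoxia libraries, and Scnn1g and Scnn1b, neighbours on chromosome 7 with a gap of 96562 bases, whose ratio was steady in all libraries but 1. The sequences are the 250 bases before the transcription start in RefSeq on GRCm38.p6, 5′ to 3′ on the strand of the gene. RefSeq windows were used for 6 of the 10 genes. No window was used for Aqp4, Slc14a2, Scnn1a or Hsd11b2, so their promoters were not examined. Capitals mark matches, on either strand, to 6 motifs. The full cAMP response element was searched as TGACGTCA, and its shorter form, which the full one contains, as TGACG. The GATA factor motif was searched as GATAA, and the core of the hypoxia response element as ACGTG. Part of the glucocorticoid and mineralocorticoid response element was searched as TGTTCT, and the TATA motif of core promoters as TATAA.
Aqp2, chr15:99578806-99579055, plus strand: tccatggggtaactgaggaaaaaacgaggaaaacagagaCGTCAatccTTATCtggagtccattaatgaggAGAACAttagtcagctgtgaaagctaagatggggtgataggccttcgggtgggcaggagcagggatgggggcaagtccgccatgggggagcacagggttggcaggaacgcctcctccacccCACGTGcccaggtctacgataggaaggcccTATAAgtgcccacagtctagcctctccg
Aqp3, chr4:41098184-41098433, minus strand: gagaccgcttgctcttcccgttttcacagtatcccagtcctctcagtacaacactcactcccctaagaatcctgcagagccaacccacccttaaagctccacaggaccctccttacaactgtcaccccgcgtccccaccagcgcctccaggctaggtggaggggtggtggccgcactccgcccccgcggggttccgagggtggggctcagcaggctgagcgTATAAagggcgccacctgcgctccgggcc
Scnn1g, chr7:121734229-121734478, plus strand: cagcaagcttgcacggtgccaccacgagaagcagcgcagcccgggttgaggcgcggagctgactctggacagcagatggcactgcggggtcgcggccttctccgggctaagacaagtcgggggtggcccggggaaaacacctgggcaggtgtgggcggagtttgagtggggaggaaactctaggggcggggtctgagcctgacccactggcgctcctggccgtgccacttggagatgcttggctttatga
Scnn1b, chr7:121864788-121865037, plus strand: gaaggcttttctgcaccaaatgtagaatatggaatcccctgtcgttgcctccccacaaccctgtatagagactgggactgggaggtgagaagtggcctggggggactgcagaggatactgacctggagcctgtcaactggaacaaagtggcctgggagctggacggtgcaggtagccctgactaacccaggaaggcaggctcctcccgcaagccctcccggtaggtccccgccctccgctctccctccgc
The Aqp2 window held a short cAMP element that begins 211 bases before the start, a GATA motif at 202, a hormone receptor motif at 179, the hypoxia core on both strands of one overlapping palindrome at 58 and 57, and a TATA motif at 28. The Aqp3 window held a TATA motif at 29 and no other motif searched, and neither ENaC window held any. The full cAMP element was in none of the 6 windows and in 1.55% of 32841 RefSeq windows of the same length. The short cAMP element was in 17.8% of them, the GATA motif in 22.6%, the hypoxia core in 16.6%, the hormone receptor motif in 16.1% and the TATA motif in 22.8%, so that each match is a description of the letters only.

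All 3 water channel genes were higher on average after hypoxia, by factors of 3.82 (Aqp2), 4.16 (Aqp3) and 7.50 (Aqp4) in mean FPKM, and only Aqp4 passed the test on the deposited values. Of the 10 genes, Aqp4 alone was past the threshold (limma, Benjamini-Hochberg adjusted p under 0.05 over 14444 genes with a mean of at least 0.5 FPKM) and higher, where 0.305% of all tested genes were higher by this rule. None was lower, where 0.602% of all tested genes were. Aqp4 and Slc14a2 had every hypoxia library above every normoxia library, 2 of 10 genes against 1.86% of all tested genes. The change was positive in 8 of the 10 genes and in 39% of all tested genes, with a median log2 change of 1.39 against -0.14 for all tested genes. Among the marker lists described below, other tubule segments also rose. The median was 1.66 for thick ascending limb (10 of 10 positive) and 1.11 for distal convoluted and connecting tubule (9 of 10). It was 1.08 for proximal tubule (11 of 12), 0.50 for other principal cell markers (8 of 11) and 0.36 for intercalated cells (11 of 12). For the inner medulla, vasa recta and macrophage lists it was 0.22, 0.04 and -2.10. These changes are on the scale of log2(FPKM + 0.5), hypoxia minus normoxia, which understates the change of low genes.

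**Figure D1:**
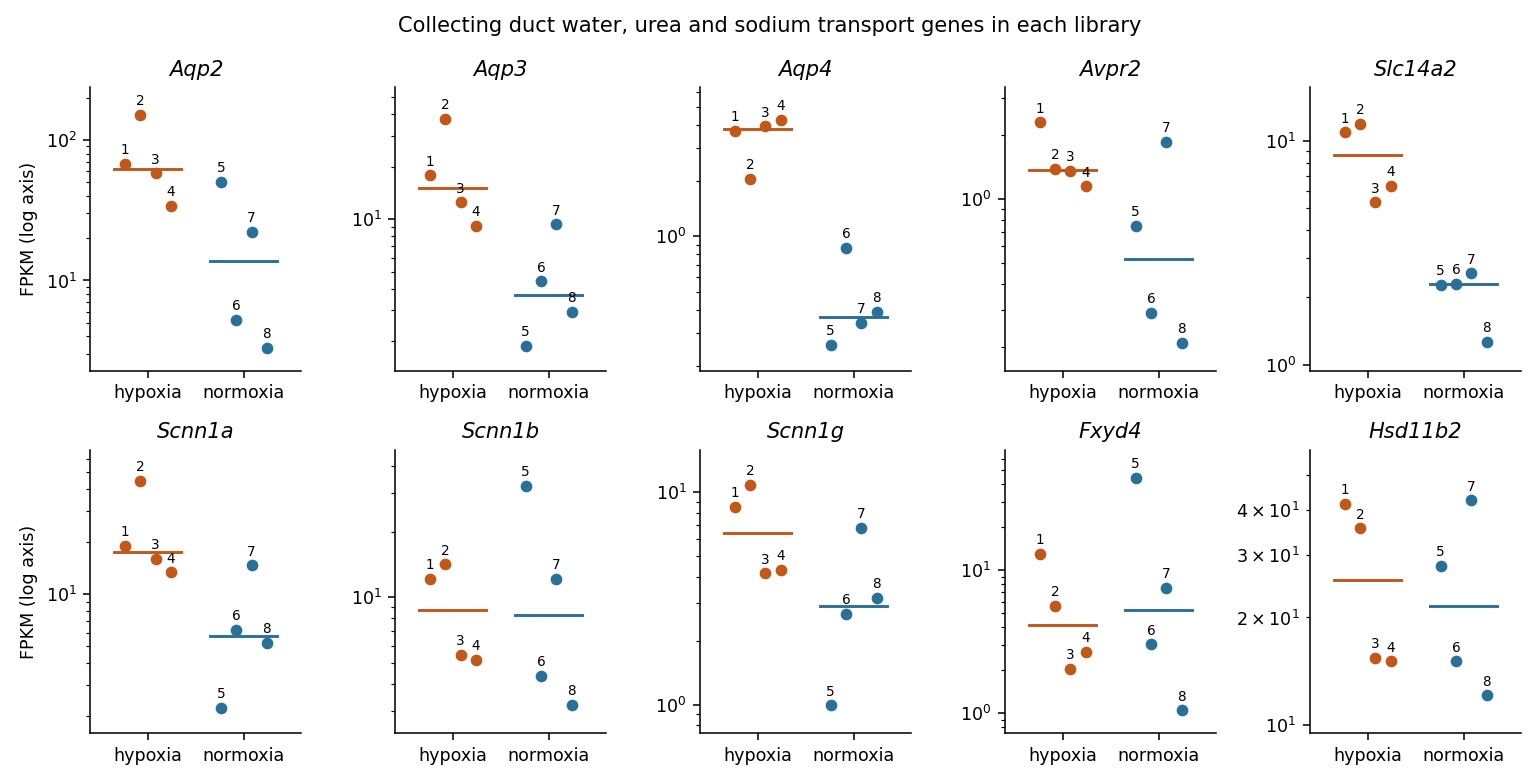
FPKM (log axis) of each of the 10 genes in the 4 hypoxia and 4 normoxia libraries, numbered by library, with a line at each group's median. Aqp4 and Slc14a2 show no overlap between groups, and normoxia library 5 lies highest of the normoxia libraries for Aqp2, Scnn1b and Fxyd4 and lowest for Aqp3, Aqp4, Scnn1a and Scnn1g.

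Aqp4 (ENSMUSG00000024411), on chromosome 18 from 15389496 to 15410982 on the minus strand of GRCm38 in the GENCODE M21 annotation, encodes a basolateral water channel. It stood at 3.70, 2.05, 3.93 and 4.27 FPKM in hypoxia libraries 1 to 4 and at 0.26, 0.87, 0.34 and 0.39 FPKM in normoxia libraries 5 to 8. The lowest hypoxia value was above the highest normoxia value. Means were 3.49 ± 0.99 FPKM in the hypoxia and 0.465 ± 0.275 FPKM in the normoxia libraries (SD; n = 4 in each), a log2 change of 2.05 ± 0.44 (SE, limma adjusted p = 0.0226). The low group rested on few reads, about 22 to 50 fragments per normoxia library. The call was lost without normoxia library 7 (adjusted p = 0.102), with no filter on low values (adjusted p = 0.271) and with scaling to protein-coding FPKM (adjusted p = 0.0957), while the log2 change was 1.99, 2.05 and 2.15. It passed under 16 of the 26 alternatives in which the gene was tested. Of the TMM fits that left out 1 library, it passed in those without normoxia library 5 or 6 and not in the other 6, where the adjusted p was 0.059 to 0.141.

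Aqp2 (ENSMUSG00000023013), on chromosome 15 from 99579055 to 99584547 on the plus strand, encodes the vasopressin-regulated apical water channel and was the most abundant of the 10 after hypoxia. Its FPKM in hypoxia libraries 1 to 4 was 67.4, 151, 57.8 and 33.8. In normoxia libraries 5 to 8 it was 50.3, 5.26, 22.1 and 3.31. The groups overlapped through normoxia library 5, which lay above hypoxia library 4, and the other normoxia libraries lay below all hypoxia libraries. The means were 77.4 ± 50.9 and 20.3 ± 21.8 FPKM (SD; n = 4 in each), with a log2 change of 2.42 ± 0.85 (SE) that did not pass (limma adjusted p = 0.224). With TMM scaling the adjusted p was 0.0989, and with TMM scaling without normoxia library 5 the change was 3.40 ± 0.38 (SE) and passed (limma adjusted p = 0.00385). Without that library the normoxia mean was 10.2 ± 10.3 FPKM (SD, n = 3), and the hypoxia mean was 7.57 times as high.

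Aqp3 (ENSMUSG00000028435), on chromosome 4 from 41092722 to 41098183 on the minus strand, encodes the second basolateral channel, which also carries glycerol. The hypoxia libraries held 17.8, 37.7, 12.5 and 9.18 FPKM and the normoxia libraries 1.89, 4.41, 9.33 and 2.94 FPKM. Only normoxia library 7 and hypoxia library 4 crossed, by a narrow margin. The log2 change of 1.95 ± 0.66 (SE) did not pass as deposited (limma adjusted p = 0.196). After TMM scaling the groups did not overlap, at 13.9 to 26.6 against 2.11 to 4.92 scaled FPKM, and the change was 2.15 ± 0.34 (SE, limma adjusted p = 0.022).

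Levels followed the same order, Aqp2 above Aqp3 above Aqp4, in each of the 8 libraries. The ratio of Aqp3 to Aqp2 in FPKM lay between 0.216 and 0.272 in the hypoxia libraries. In the normoxia libraries it was 0.0376, 0.838, 0.422 and 0.888, so that libraries 6, 7 and 8 lay above and library 5 below the hypoxia range. The difference between groups in the log2 ratio was -0.47 ± 1.0 (SE) and did not pass a two-sided exact permutation test (p = 0.714, adjusted p = 0.886 over 6 pairs). It was -1.44 without normoxia library 5, -0.047 without library 6 and -0.019 without library 8, and passed in none of these. The ratios of Aqp4 to Aqp2 and of Aqp4 to Aqp3 differed by -0.37 ± 1.18 and 0.098 ± 0.76 (SE), each with adjusted p = 0.886 in the same permutation test, and their signs changed with the pseudocount. With 4 against 4 libraries this test cannot give a p below 0.0286, and 1 pair alone at that value would have an adjusted p of 0.171.

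**Figure D2:**
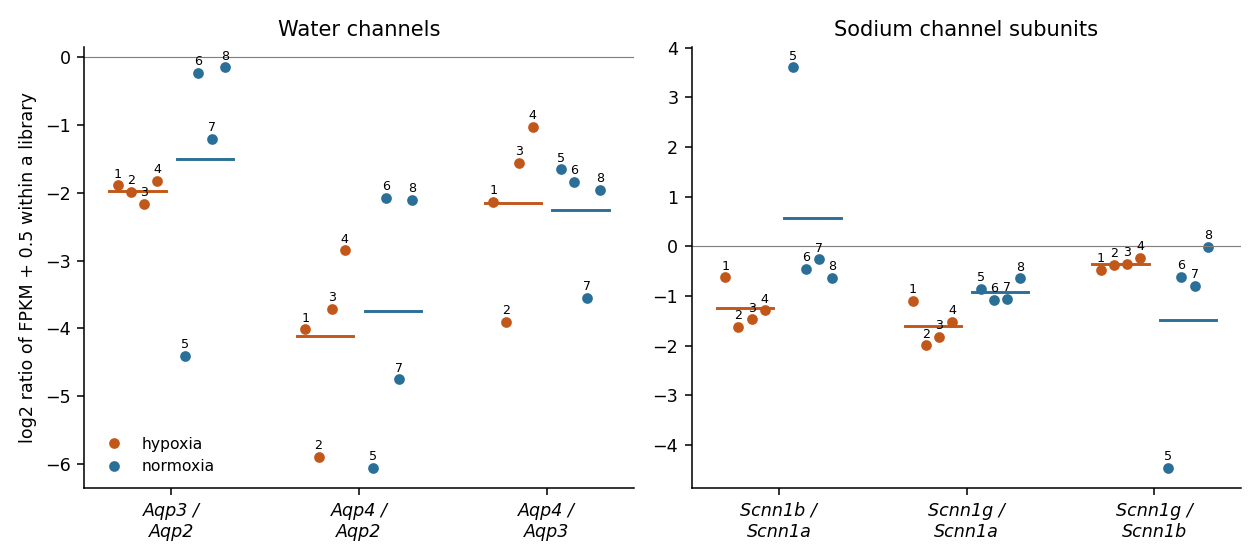
Log2 ratio of 1 gene to another (each FPKM + 0.5) within each numbered library, for the 3 water channel genes and the 3 ENaC subunit genes, with a line at each group's mean. Aqp3 to Aqp2 is tight in the hypoxia libraries, and normoxia library 5 lies far from the other libraries in both ratios that contain Scnn1b.

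Avpr2 (ENSMUSG00000031390), on the X chromosome from 73892102 to 73895502 on the plus strand, encodes the vasopressin receptor of the tubule and was the least abundant of the 10 after hypoxia. Its levels were 2.30, 1.39, 1.36 and 1.15 FPKM in the hypoxia libraries and 0.75, 0.29, 1.87 and 0.21 FPKM in the normoxia libraries. Normoxia library 7 lay within the hypoxia range and the other normoxia libraries below it. The log2 change was 0.82 ± 0.45 (SE) and did not pass as deposited (limma adjusted p = 0.635), nor with TMM scaling (1.02 ± 0.31, adjusted p = 0.125). It rested on about 6 to 80 fragments per library. The gene overlaps L1cam and Arhgap4 on the opposite strand, which reached 4.25 and 1.28 FPKM. Whether the authors counted by strand is not given in the sources used here.

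Slc14a2 (ENSMUSG00000024552), the urea transporter gene, on chromosome 18 from 78146148 to 78596942 on the minus strand, had the smallest SE of the 10 with TMM scaling. As deposited it stood at 10.9, 11.95, 5.32 and 6.30 FPKM in the hypoxia libraries and at 2.27, 2.30, 2.56 and 1.26 FPKM in the normoxia libraries. No normoxia library reached the lowest hypoxia library, and the mean was 4.11 times as high after hypoxia. The log2 change of 1.77 ± 0.54 (SE) did not pass (limma adjusted p = 0.129). After TMM scaling the hypoxia libraries lay at 8.79, 8.42, 8.23 and 9.50 and the normoxia libraries at 2.54, 2.28, 1.35 and 1.63 scaled FPKM. The change was then 1.94 ± 0.25 (SE) and passed (limma adjusted p = 0.0154). As deposited, hypoxia libraries 1 and 2 lay above 3 and 4, and their ribosomal shares were 40.9% and 21.5% against 66.3% and 67.4%. After TMM scaling the pairs no longer lay apart in that order. The gene overlaps Gm6133 on the opposite strand, which was at most 2.42 FPKM.

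Of the 3 ENaC subunit genes, Scnn1a and Scnn1g had a higher mean after hypoxia and Scnn1b a lower one, and none passed on the deposited values. Scnn1a (ENSMUSG00000030340), on chromosome 6 from 125320659 to 125344943 on the plus strand, encodes the alpha subunit. Its FPKM was 19.0, 44.5, 15.9 and 13.3 in the hypoxia libraries and 2.21, 6.20, 14.6 and 5.24 in the normoxia libraries. Normoxia library 7 alone reached into the hypoxia range. The log2 change was 1.74 ± 0.69 (SE, limma adjusted p = 0.337) as deposited. With TMM scaling it was 1.94 ± 0.40 (SE), the groups did not overlap, and it passed (limma adjusted p = 0.0379).

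Scnn1g (ENSMUSG00000000216), on chromosome 7 from 121734479 to 121768475 on the plus strand, encodes the gamma subunit. It held 8.55, 10.8, 4.15 and 4.29 FPKM in the hypoxia libraries and 0.99, 2.67, 6.79 and 3.17 FPKM in the normoxia libraries. Hypoxia libraries 3 and 4 lay below normoxia library 7 and above the others. The log2 change was 1.04 ± 0.59 (SE, limma adjusted p = 0.67) as deposited and 1.23 ± 0.34 (SE, limma adjusted p = 0.0996) with TMM scaling, where the groups no longer overlapped.

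Scnn1b (ENSMUSG00000030873), on chromosome 7 from 121865038 to 121918514 on the plus strand, encodes the beta subunit. Its values were 12.1, 14.2, 5.43 and 5.15 FPKM in the hypoxia libraries and 32.5, 4.37, 12.1 and 3.20 FPKM in the normoxia libraries. Library 5 was 2.68 times as high as the next normoxia library and above every hypoxia library. The log2 change was -0.069 ± 0.71 (SE, 95% interval -1.53 to 1.39, limma adjusted p = 0.999), an interval wide enough to hold the change of Scnn1g. With TMM scaling without library 5 it was 0.83 ± 0.18 (SE) and passed (limma adjusted p = 0.0258). The gene overlaps Cog7 on the opposite strand, which was at most 5.04 FPKM.

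In the 4 hypoxia libraries and in normoxia libraries 6, 7 and 8 the order of levels was Scnn1a above Scnn1b above Scnn1g, and in library 5 Scnn1b was highest. The ratio of Scnn1b to Scnn1a in FPKM was 14.7 in library 5, against 0.611 to 0.828 in normoxia libraries 6 to 8 and 0.318 to 0.640 after hypoxia. The log2 ratio differed between groups by -1.81 ± 1.04 (SE, exact permutation p = 0.0571, adjusted p = 0.171). Scnn1g to Scnn1a in FPKM was 0.451, 0.242, 0.261 and 0.323 in the hypoxia libraries and 0.448, 0.431, 0.464 and 0.605 in the normoxia libraries. Hypoxia library 1 lay above normoxia libraries 5 and 6, and the other hypoxia libraries lay below all normoxia libraries. On the log2 scale with the pseudocount the groups did not overlap, so that the separation of library 1 rests on the pseudocount. The log2 ratio differed by -0.70 ± 0.22 (SE) with the smallest p the exact permutation test allows (0.0286), and it did not pass after adjustment over the 6 pairs (adjusted p = 0.171). Scnn1g to Scnn1b was between 0.705 and 0.833 in the hypoxia libraries, between 0.560 and 0.991 in normoxia libraries 6 to 8 and 0.0305 in library 5 (difference of log2 ratios 1.11 ± 1.01, SE, exact permutation p = 0.314, adjusted p = 0.629). Without library 5 the difference was 0.11 for Scnn1g to Scnn1b and -0.80 for Scnn1b to Scnn1a, and neither passed.

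Fxyd4 and Hsd11b2 did not pass the threshold on the deposited values or under any alternative run. Fxyd4 (ENSMUSG00000004988), on chromosome 6 from 117933559 to 117937692 on the minus strand, held 13.0, 5.62, 2.05 and 2.70 FPKM in the hypoxia libraries and 44.2, 3.03, 7.53 and 1.05 FPKM in the normoxia libraries. Library 5 was 5.86 times as high as the next normoxia library. The log2 change was -0.39 ± 0.79 (SE, 95% interval -2.0 to 1.23, limma adjusted p = 0.999), and without library 5 it was 0.53 and did not pass either. Hsd11b2 (ENSMUSG00000031891), on chromosome 8 from 105518755 to 105523988 on the plus strand, held 41.7, 35.5, 15.4 and 15.1 FPKM in the hypoxia libraries and 27.9, 15.1, 42.5 and 12.1 FPKM in the normoxia libraries. Both groups covered the same range, and the log2 change was 0.16 ± 0.74 (SE, 95% interval -1.35 to 1.68, limma adjusted p = 0.999). With TMM scaling the interval narrowed to -0.42 to 1.13 around 0.36, without passing. When library 5 was left out under TMM scaling, every hypoxia library lay above every normoxia library, and the change was 0.58 ± 0.21 (SE, 95% interval 0.097 to 1.06), which did not pass after adjustment (limma adjusted p = 0.124).

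Ordered by mean FPKM after hypoxia, the genes ran Aqp2 (77.4), Hsd11b2 (26.9), Scnn1a (23.2), Aqp3 (19.3), Scnn1b (9.22), Slc14a2 (8.63), Scnn1g (6.95), Fxyd4 (5.84), Aqp4 (3.49) and Avpr2 (1.55). After normoxia the order was Hsd11b2 (24.4), Aqp2 (20.3), Fxyd4 (13.9), Scnn1b (13.0), Scnn1a (7.07), Aqp3 (4.64), Scnn1g (3.41), Slc14a2 (2.10), Avpr2 (0.78) and Aqp4 (0.465). Neighbours in either order overlapped in the range of their libraries. Normoxia values spread more widely than hypoxia values for 9 of the 10 genes, with the highest library 42.1 times the lowest for Fxyd4, 15.2 times for Aqp2 and 10.2 times for Scnn1b after normoxia. After hypoxia the same genes spread 6.33, 4.46 and 2.75 times. Slc14a2 was the exception, at 2.03 times after normoxia and 2.25 times after hypoxia. Without library 5 the normoxia spread was 7.17 times for Fxyd4, 6.68 times for Aqp2 and 3.79 times for Scnn1b, and it was wider than the hypoxia spread for 6 of the 10 genes.

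Normoxia library 5 divided the 10 genes. Against the mean of the other normoxia libraries it held 11.4 times as much Fxyd4, 4.95 times as much Scnn1b and 4.92 times as much Aqp2, but 0.235 times as much Scnn1g, 0.254 times as much Scnn1a, 0.340 times as much Aqp3 and 0.488 times as much Aqp4. Slc14a2 (1.11), Hsd11b2 (1.2) and Avpr2 (0.949) were near the mean of the others. The exon lengths were 1419, 1957 and 2633 bases for Aqp2, Fxyd4 and Scnn1b, and 1829, 2991, 4132 and 6233 bases for Aqp3, Scnn1g, Scnn1a and Aqp4. For Slc14a2, Hsd11b2 and Avpr2, near the mean, they were 5171, 1840 and 2886 bases. These lengths join all annotated exons of a gene and need not be those of the transcripts present. Another FXYD gene, Fxyd2, which encodes the gamma subunit of the sodium pump, likewise stood at 1143 FPKM in library 5 and at 40.01 to 137 FPKM in the other normoxia libraries. The part of library quality or transcript length in these values was not tested.

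The number of genes past the threshold depended on scaling and on single libraries. With TMM scaling 4 of the 10 were higher, Aqp3, Aqp4, Scnn1a and Slc14a2, against 1.21% of all tested genes, and 5 of the 10 had groups that did not overlap, against 6.97%. With each library's trend with exon length removed, and with quantile normalization, 5 were higher (the same 4 and Aqp2), against 1.41% and 1.94% of all tested genes. Scaling to protein-coding FPKM gave 2, Aqp2 and Slc14a2, against 0.623%, and 4 without normoxia library 5, against 3.27%. Library weights gave 6, against 2.49%. With TMM scaling without normoxia library 5, 8 were higher, all but Fxyd4 and Hsd11b2, against 5.77% of all tested genes, and 9 did not overlap, against 13.7%. Leaving out another library under TMM scaling was a step chosen after seeing the data. It gave 2 without hypoxia library 1, where 61 of 14456 tested genes were higher. Without normoxia library 6 it gave 3, where 131 of 14453 tested genes were higher. Without hypoxia library 2, 3 or 4 or normoxia library 7 or 8 it gave 0. In those last 5 cases only 9 to 13 of all tested genes were higher. The changes of Aqp2, Aqp3, Aqp4, Avpr2, Scnn1a, Scnn1g and Slc14a2 were positive under every alternative in which they were tested.

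**Figure D3:**
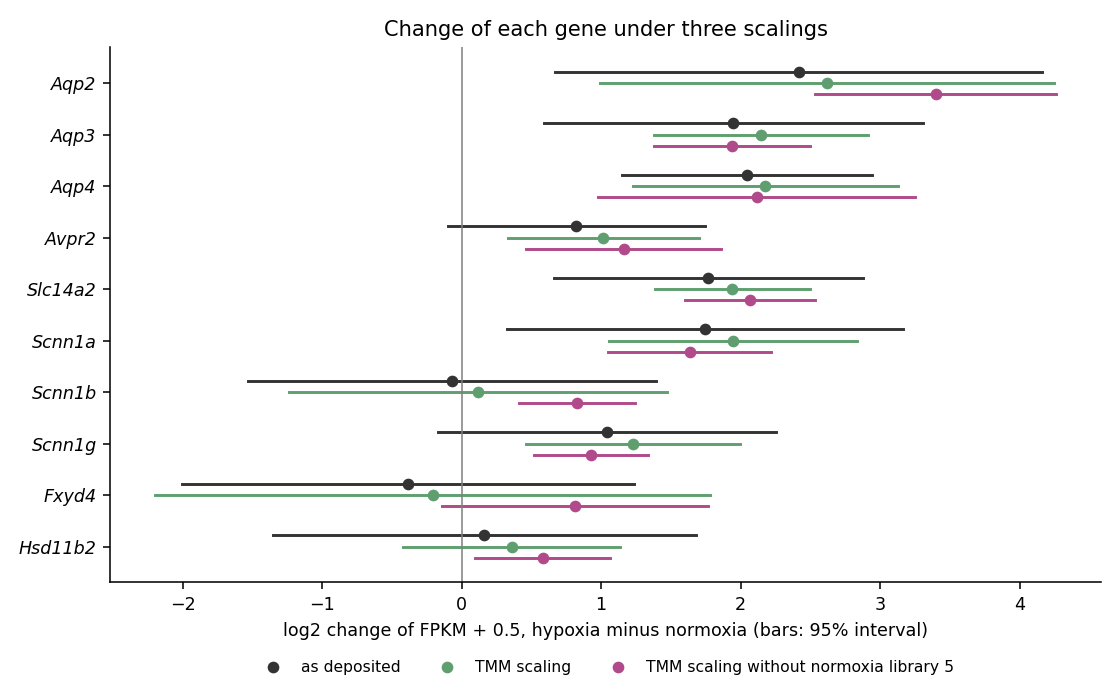
Log2 change (hypoxia minus normoxia, on log2 of FPKM + 0.5) of each gene with its 95% interval from limma, for the deposited values, TMM scaling, and TMM scaling without normoxia library 5. When library 5 is left out under TMM scaling, intervals shrink for all genes but Aqp4 and Avpr2. The point of Scnn1b lies above 0 under both TMM settings, and that of Fxyd4 only without library 5.

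Around these genes, 6 pathway lists were examined, with 54 tested genes that are not among the 10. None of the 54 was past the threshold as deposited in limma, whereas 3 were higher with TMM scaling (Kcnj1, Kcnj10 and Aqp1) and none lower, where 1.21% of all tested genes were higher and 1.32% lower. With TMM scaling without normoxia library 5, 12 of 55 were higher and 1 lower, against 5.77% higher and 5.32% lower among all tested genes. Leaving out hypoxia library 1 or normoxia library 6 under TMM scaling left 1 list gene past the threshold in each case. In those fits 61 and 131 of all tested genes were higher. Of the list genes, 0 passed without hypoxia library 2, 3 or 4 or normoxia library 7 or 8. The largest rise among the 12 under that setting was that of Aqp1, the constitutive water channel of the proximal tubule and thin descending limb (log2 change 2.86 ± 0.49, SE, limma adjusted p = 0.0132). Aqp1 held 61.8 to 255 FPKM in the hypoxia libraries and 6.75 to 39.8 FPKM in the normoxia libraries, with no overlap. Of the other aquaporins tested, Aqp6 of intercalated cells (1.31) and Aqp11 (1.08) also rose under that setting, and Aqp7 (0.58) did not pass.

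The mineralocorticoid receptor and ENaC regulation list had 16 tested genes, none past the threshold as deposited (median log2 change 0.53). With TMM scaling 1 was higher, against 1.21% of all tested genes, and 0 or 1 with a single library other than library 5 left out. With TMM scaling without library 5, 3 were higher (median 0.56), against 5.77% of all tested genes. The 3 were the aldosterone-responsive Ndrg2 (log2 change 2.03 ± 0.37, SE), the potassium channel gene Kcnj1 of the thick ascending limb and principal cell (1.57 ± 0.20) and the deubiquitinase gene Usp2 (1.22 ± 0.30). Sgk1, the kinase that restrains ENaC removal, held 13.8 to 26.9 FPKM after hypoxia and 1.99 to 12.2 FPKM after normoxia. Its groups did not overlap, and it did not pass as deposited (log2 change 1.46, limma adjusted p = 0.491) or with TMM scaling without library 5 (adjusted p = 0.0596). The receptor gene Nr3c2 itself was at 1.56 ± 0.31 and 1.08 ± 0.65 FPKM (SD; n = 4 in each), a difference that did not pass.

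In the list for vasopressin and cAMP signalling none of 14 tested genes passed as deposited, with TMM scaling or with TMM scaling without library 5, with medians of 0.22, 0.40 and 0.23. Adcy6, the main adenylyl cyclase of the collecting duct, was at 10.4 ± 4.33 FPKM in the hypoxia and 8.53 ± 5.43 FPKM in the normoxia libraries (SD; n = 4 in each). Gnas, which encodes the stimulatory G protein, was at 17.1 ± 9.45 and 16.4 ± 13.4 FPKM. The test of a difference between these genes and the transport genes was not made.

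Among 9 tested potassium channel and sodium pump genes of the distal nephron none passed as deposited. With TMM scaling without library 5, 5 were higher, against 5.77% of all tested genes. Among them were Kcnj10, Wnk4, the pump subunit gene Atp1b1 and Fxyd2, and the log2 changes of these 4 lay between 1.27 and 1.43. With any other single library left out under TMM scaling, 0 or 1 gene of this list was higher. Of the 4 other FXYD genes tested, none passed as deposited. Under TMM scaling without library 5 Fxyd2 was higher, and Fxyd5 was lower (-0.89 ± 0.19, SE, limma adjusted p = 0.0246). Of the genes of tonicity and organic osmolytes, 8 were tested as deposited and none passed. With TMM scaling without library 5 the myo-inositol transporter gene Slc5a3 was higher (1.40 ± 0.33, SE, limma adjusted p = 0.0313). Slc5a3 held 12 to 17.7 FPKM after hypoxia and 2.40 to 7.02 FPKM after normoxia, while Nfat5, the tonicity-responsive transcription factor gene, was at 2.24 ± 1.12 and 4.30 ± 2.71 FPKM (SD; n = 4 in each), which did not pass.

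**Figure D4:**
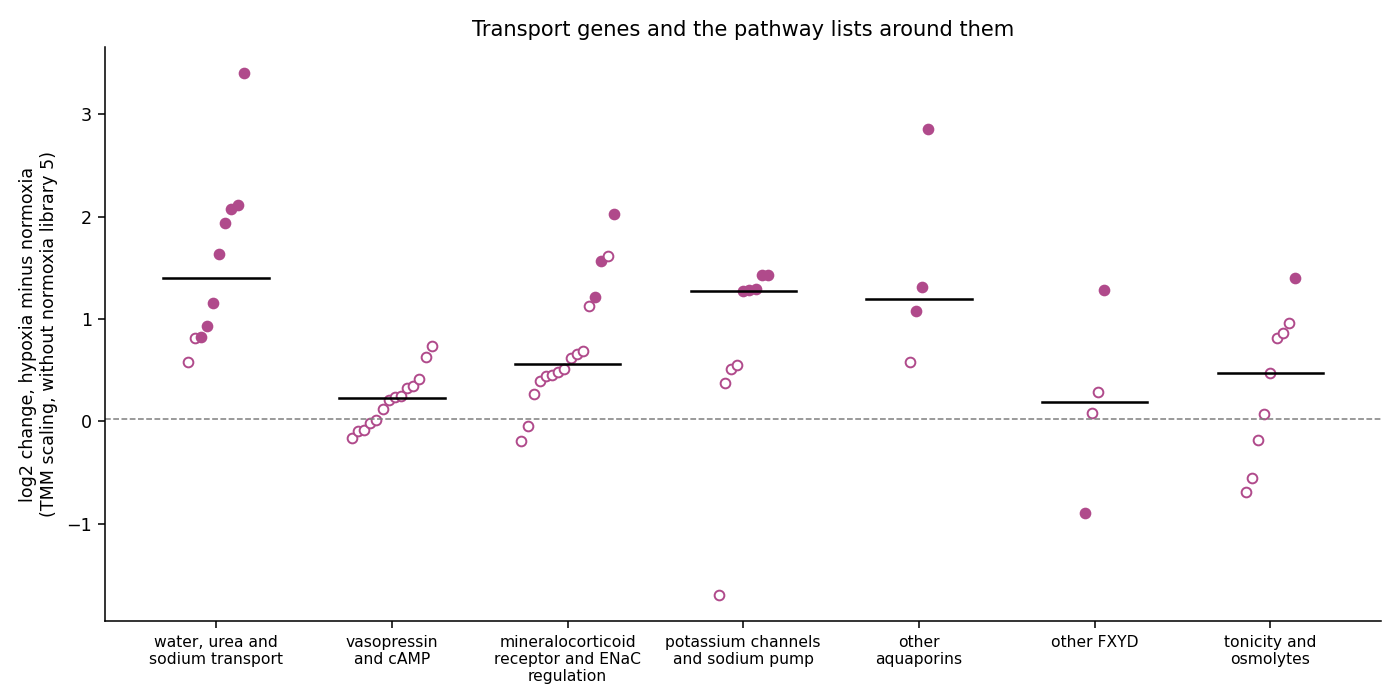
Log2 change of each tested gene (hypoxia minus normoxia) with TMM scaling without normoxia library 5, for the 10 transport genes and 6 pathway lists. Filled points passed the adjusted threshold, bars are list medians and the dashed line is the median of all tested genes. The transport genes have a median of 1.40, the vasopressin and cAMP list a median of 0.23 with no filled point.

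Markers of collecting duct identity were present in both groups. Of 11 tested principal cell markers outside the 10 genes none passed as deposited (median log2 change 0.50). The summed level of all 12 listed was 88.8 to 212 FPKM after hypoxia and 86.5 to 221 FPKM after normoxia. With TMM scaling 1 of the 11 was higher, where 1.21% of all tested genes were. Under TMM scaling without library 5, 4 were higher, against 5.77% of all tested genes. Among the 4 were Mcoln3 (1.65 ± 0.24, SE) and Apela (2.26 ± 0.27), a peptide hormone gene. The transcription factor genes Tfcp2l1 (0.35), Gata2 (0.61) and Gata3 (0.66) did not pass. None of 12 intercalated cell markers passed as deposited, with sums of 36.1 to 89.0 and 23.6 to 75.7 FPKM. Under TMM scaling 1 of these 12 was higher, against 1.21% of all tested genes. Under TMM scaling without library 5, 6 of 11 were higher (median 0.86), against 5.77%, and none was lower, against 5.32%. When any other single library was left out under TMM scaling, the intercalated cell count was 0. The principal cell count was 1 without normoxia library 6, where 131 of 14453 tested genes were higher, and 0 in the other such fits.

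Markers of other cell types also differed between the groups. As deposited, 4 of 10 thick ascending limb markers were higher (summed level 434 to 1897 FPKM after hypoxia and 159 to 598 after normoxia). So were 2 of 10 for distal convoluted and connecting tubule (582 to 2022 and 302 to 1801 FPKM) and 1 of 12 for proximal tubule (710 to 1531 and 140 to 2005 FPKM). By this rule 0.305% of all tested genes were higher. The highest normoxia sum was that of library 5 for the distal and the proximal list. With TMM scaling these counts were 5, 3 and 0, against 1.21% of all tested genes. With TMM scaling without library 5 they were 8, 6 and 8, against 5.77%. When any other single library was left out under TMM scaling, 9 to 131 of all tested genes were higher. The proximal tubule count was then 0, the thick ascending limb count 2 to 5 and the distal count 1 to 2. Pvalb, 1 of the 2 distal markers that passed as deposited, was listed at 0 in normoxia libraries 6, 7 and 8 and at 1.42 FPKM in library 5. The size of its log2 change therefore depends on the pseudocount. None of 8 tested macrophage and T cell markers passed as deposited, although all 8 changes were negative. Sums over the 9 markers present were 19.9 to 99.8 FPKM after hypoxia and 124 to 786 FPKM after normoxia, highest in library 5. Of these, Cd3e was too low to be tested and was listed at 0 in hypoxia library 4. With TMM scaling 3 of the 8 were lower, against 1.32% of all tested genes, and with TMM scaling without library 5, 6 were, against 5.32%. Under TMM scaling 2 were lower without hypoxia library 1 and 1 without normoxia library 6, where 89 and 119 of all tested genes were. With any other single library left out, 0 were lower. Markers of the inner medulla, papillary surface and urothelium, which bear on how much papilla a sample held, had no gene past the threshold as deposited among 11 tested. Sums over all 12 markers of that list were 23.6 to 50.3 and 22.1 to 105 FPKM, with the highest normoxia sum in library 5. Of the 12, 6 were listed at 0 in some libraries, namely 5 uroplakin genes and Krt14, which was not tested. Of the vasa recta and interstitium list, none of 7 passed as deposited. The part of these cell types in the values of the transport genes was not tested.

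Genes with the pattern most like 3 of the members were sought among 10112 named genes with a mean of at least 1 FPKM, by Pearson correlation of log2 values over the 8 libraries, which share their scaling and library 5. For Aqp2 they included mt-Nd1 (r = 0.97), Ppp1r1a (0.97) and Slc25a35 (0.96). For Aqp4 they were Shank2 (r = 0.97), Reps2 (0.95), Lrp2 (0.94), Prom2 (0.94) and Ppp1r16b (0.94). For Scnn1a they were Acss3 (0.99), Aqp3 (0.99), Peli2 (0.99), Insr (0.98) and Klhl3 (0.98). Aqp3 is thus a transport gene of the 10 that itself appears among the genes most like another, and its rank order over the 8 libraries was that of Scnn1a (Spearman rho = 1). Between other members the correlation ranged down to -0.26 (Aqp4 with Fxyd4), and that of Fxyd4 with Scnn1b was 0.95.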

How the data were processed

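Poly(A) RNA of 8 kidney samples was sequenced from libraries that keep the strand, per the labels' protocols. The submitters' processing notes name HISAT2, StringTie and edgeR without version or role. Build and strand setting: not given in the sources used here. FPKM per gene and library, in 2 decimals, were deposited by the authors, per the file headers, with no recorded scaling between libraries. All 34450 Ensembl identifiers matched GENCODE M21 (GRCm38), which gave symbols, positions and exon lengths.

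Values were tested as log2(FPKM + 0.5) in genes with a mean of at least 0.5 FPKM, with limma 3.58.1 in R 4.3.3 (eBayes with trend, two-sided, 4 against 4 libraries, no covariate), with p-values adjusted by Benjamini-Hochberg over all 14444 genes tested and a threshold of 0.05. This step was tested on simulated data with independent noise for each gene, which held no shift shared by the genes of a library. Ratios of 2 genes within a library were compared by a two-sided exact permutation test over 70 assignments, for all 6 pairs within the 2 families of 3 genes. TMM factors followed the published formula (30% of ratios and 5% of levels trimmed at each end), as a scaling only; the formula weights genes as if values were counts. Exon-length trends were removed by loess (span 0.5). Fragment numbers are approximate and come from FPKM, exon length and estimated depth. Precision is limited by them and by n = 4. Named genes were the 10, the passing genes of a list (at most 4, by p, or where none passed the 2 lowest in p), and the 5 genes most correlated with Aqp2, Aqp4 and Scnn1a; some of these genes are not reported here, and Nr3c2, Gnas, Adcy6, Aqp7, Nfat5, Tfcp2l1, Gata2, Gata3, and genes beyond 4 of a list, were added after their values were seen. The 10 genes, the lists and the alternatives were chosen with earlier results of these data known.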

Additional observations from a re-analysis of the deposited data

Results flagged for a closer look

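In 2 of the 32 sets of 4 values examined (10 genes and 6 ratios in each group, on the log2 scale), 1 library lay further from the others than Dixon's critical value for the gap over the range, at 0.912 and 0.843; chance gives about 1 in 20. The log2 ratio of Scnn1b to Scnn1a was 3.61 in normoxia library 5, against -0.63 to -0.26 in the other normoxia libraries. The log2 ratio of Aqp4 to Aqp3 was -3.55 in normoxia library 7, against -1.95 to -1.65 in the others. That library held the highest Aqp3 of its group (9.33 FPKM) and an Aqp4 of 0.34 FPKM. Neither gene pair differed between the groups past the threshold.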

How the results depend on the processing

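No paired analysis was possible because the titles number the hypoxia libraries 1 to 4 and the normoxia libraries 5 to 8, and no number is shared. The count of the 10 genes higher after hypoxia was 1 as deposited. It was 0 with no filter on low values, when 0 of 30982 genes passed, and 0 with a mean of at least 2 FPKM, when Aqp4 and Avpr2 were not tested. It was 4 with TMM scaling, 5 with quantile normalization, 2 with scaling to protein-coding FPKM, 5 with the exon-length trend removed, 6 with library weights (whose estimation stopped before its tolerance was reached) and 8 with TMM scaling without normoxia library 5. Leaving out 1 library gave 0 to 1 as deposited and 0 to 8 with TMM scaling (2 without hypoxia library 1, 3 without normoxia library 6, 0 without hypoxia library 2, 3 or 4 or normoxia library 7 or 8). Scaling to protein-coding FPKM without normoxia library 5, added after seeing the data, gave 4. The count of lower genes was 0 under every alternative. The count of all tested genes higher and lower was 44 and 87 as deposited, 175 and 191 with TMM scaling, 831 and 767 with TMM scaling without library 5, 280 and 349 with quantile normalization, 204 and 250 with the exon-length trend removed, 90 and 141 with scaling to protein-coding FPKM, 33 and 47 with a pseudocount of 1, and 360 and 1297 with library weights.

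The log2 change of Scnn1b, -0.069 as deposited, was 0.12 with TMM scaling, 0.38 with quantile normalization, 0.18 with scaling to protein-coding FPKM, 0.14 with the exon-length trend removed, 0.61 with library weights, 0.83 with TMM scaling without library 5 and 0.49 with scaling to protein-coding FPKM without it. Leaving out 1 library gave -0.51 to 0.54 as deposited and -0.17 to 0.83 with TMM scaling (0.081, 0.069, 0.15 and 0.19 without hypoxia library 1, 2, 3 and 4). The change of Fxyd4, -0.39 as deposited, was 0.097 with quantile normalization, 0.27 with library weights, 0.81 with TMM scaling without library 5 and 0.50 with scaling to protein-coding FPKM without it, and -1.09 to 0.53 with 1 library left out. That of Hsd11b2 was -0.11 to 0.48 with 1 library left out. The ratio of Aqp4 to Aqp2 differed by 0.24 with a pseudocount of 0.1 and by -1.14 to 0.22 with 1 library left out. The ratio of Aqp4 to Aqp3 differed by -0.22 with a pseudocount of 1, by -0.086 with the exon-length trend removed and by -0.34 to 0.68 with 1 library left out. With 1 library left out, the difference was -1.44 to -0.019 for Aqp3 to Aqp2, -2.21 to -0.80 for Scnn1b to Scnn1a and 0.11 to 1.6 for Scnn1g to Scnn1b. None of the 6 ratios passed under any alternative run. The cause of these shifts was not tested. Low values of Aqp4 and Avpr2 rested on few fragments.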

Other observations

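Kcnj10 and Kcnj16 encode subunits that form a basolateral potassium channel together in the distal nephron, and their values lay in opposite directions. Kcnj10 held 5.98, 10.1, 5.19 and 6.18 FPKM in the hypoxia libraries and 2.44, 2.13, 4.87 and 1.89 FPKM in the normoxia libraries, with no overlap. Kcnj16 held 2.65, 11.1, 51.1 and 6.20 FPKM in the hypoxia libraries and 54.5, 46.8, 64.1 and 24.9 FPKM in the normoxia libraries, so that hypoxia library 3 alone lay within the normoxia range. Kcnj10 had a log2 change of 1.18 as deposited, which did not pass (limma adjusted p = 0.485). It passed with TMM scaling (1.37, limma adjusted p = 0.0344) and with TMM scaling without normoxia library 5 (1.43, adjusted p = 0.0132). Kcnj16 had a log2 change of -2.10 ± 0.81 (SE) as deposited and -1.89 with TMM scaling. With TMM scaling without normoxia library 5 it was -1.69 ± 0.99 (SE). It passed under none of these settings (limma adjusted p = 0.312, 0.3165 and 0.34). The difference between the 2 genes was not tested, and the pair was chosen for mention after its values were seen.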
